A study of Mus musculus with 24 samples.

Results

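The 8 genes described here act in the synthesis of heme, the iron-porphyrin group of cytochromes, catalase and other proteins. They are Alas1, Alad, Uros, Urod, Cpox, Ppox and Fech, which encode 7 enzymes of the pathway, and Abcb10, which encodes a transporter of the inner mitochondrial membrane. They were chosen by name from a table of 53465 mouse genes, because the pathway starts from succinyl-CoA, the product of the 2-oxoglutarate dehydrogenase complex. All 8 were in the table, and all 8 passed the filter on low counts that left 14249 genes for testing. The sequenced RNA came from RN2, a cultured line of murine acute myeloid leukaemia with the genotype Mll-Af9; NrasG12D. Clones carried a retroviral, doxycycline-inducible short hairpin RNA, either shOgdh346 or shOgdh2081, both against Ogdh, or the control shRen713. Each hairpin was represented by 2 clones, which were sampled at day 4 of doxycycline and untreated at day 0. With 2 libraries per clone and day, the 24 libraries form 6 groups of 4: shOgdh346 at day 4, shOgdh2081 at day 4, shRen713 at day 4, and the same hairpins at day 0. All groups share the leukaemia genotype and the retroviral vector, and each hairpin is known here from its pair of clonal isolates alone.

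Heme synthesis begins in mitochondria, where 5-aminolevulinate synthase joins succinyl-CoA to glycine. ALAS1, the form made in most tissues, is the rate-limiting step outside red cells, and its mRNA is known to be held down by heme itself. The middle steps run in the cytosol, and the last ones return to the mitochondrion, where ferrochelatase inserts iron. Leukaemia cells of the myeloid lineage need heme for respiratory cytochromes and, as they mature, for the heme enzymes of granules and of the phagocyte oxidase.

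Total counts ran between 7209186 and 20705468 per library. Ogdh, the target of both hairpins, had 32.3 to 70.9 CPM, which is the count scaled by the size of the library, in the 8 libraries of the Ogdh hairpins at day 4, against 206 to 253 CPM in the 4 libraries of shRen713 at day 4. At day 0 it had 126 to 235 CPM in libraries of the Ogdh hairpins and 202 to 250 CPM in those of shRen713. There, 7 of the 8 libraries of the Ogdh hairpins were already below all 4 control libraries. The net change of a gene was defined as the log2 change between day 4 and day 0 in clones of an Ogdh hairpin, minus that in clones of shRen713. For Ogdh the mean net change of both hairpins was -1.76 ± 0.185 (SE, adjusted p = 4e-04). The libraries labelled rep 1 and rep 2 stood apart at day 0. There, 31% of the tested genes had a difference between the 2 libraries of a clone that was of one sign in all 6 clones, against 9.72% at day 4. Where the libraries of 1 of these labels alone ended a member's call, that value is given beside it.

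Per length of transcript, Alas1 was the most abundant of the 8 genes and Uros the least. The mean over the 12 sums of a clone and day was 93.6 RPKM for Alas1, where RPKM is the CPM divided by the transcript length in kilobases. Fech followed at 19.6 RPKM, Urod at 15.3 RPKM and Abcb10 at 13.2 RPKM. Ppox averaged 9.38 RPKM, Alad 5.92 RPKM, Cpox 4.61 RPKM and Uros 3.42 RPKM. The ranges of neighbours in this order overlapped across the sums, except that Alas1, at 41.3 RPKM or more in every sum, lay above the others. These levels rest on the transcript length in the deposited table, which for Cpox and Fech is shorter than the joined exons of the GENCODE M21 annotation. Erythroid cells make heme through another first enzyme, ALAS2. Alas2 had 62 counts over the 24 libraries together and at most 0.605 CPM in any of them, and the 11 erythroid marker genes in the table summed to 0.922 to 3.28 CPM per library, with Slc4a1, Hbb-bs and Hba-a2 at 0.

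Under Ogdh knockdown the first enzyme moved one way and part of the rest the other. Over both Ogdh hairpins, Alas1 rose net of the control by 0.86 on the log2 scale, a 1.81-fold change. Cpox, which encodes coproporphyrinogen oxidase, fell to 0.444 times its control-corrected level, and Abcb10 and Fech fell to 0.744 and 0.767 times theirs. Alad, Uros, Urod and Ppox did not pass the test. Thus 1 of the 8 members rose and 3 fell, where 17.9% of all 14249 tested genes rose and 19.8% fell. The share of members that passed the test, 4 of 8, compares with 37.7% of all genes. The median net change of the 8 members was -0.394, beside -0.00201 over all tested genes.

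**Figure D1:**
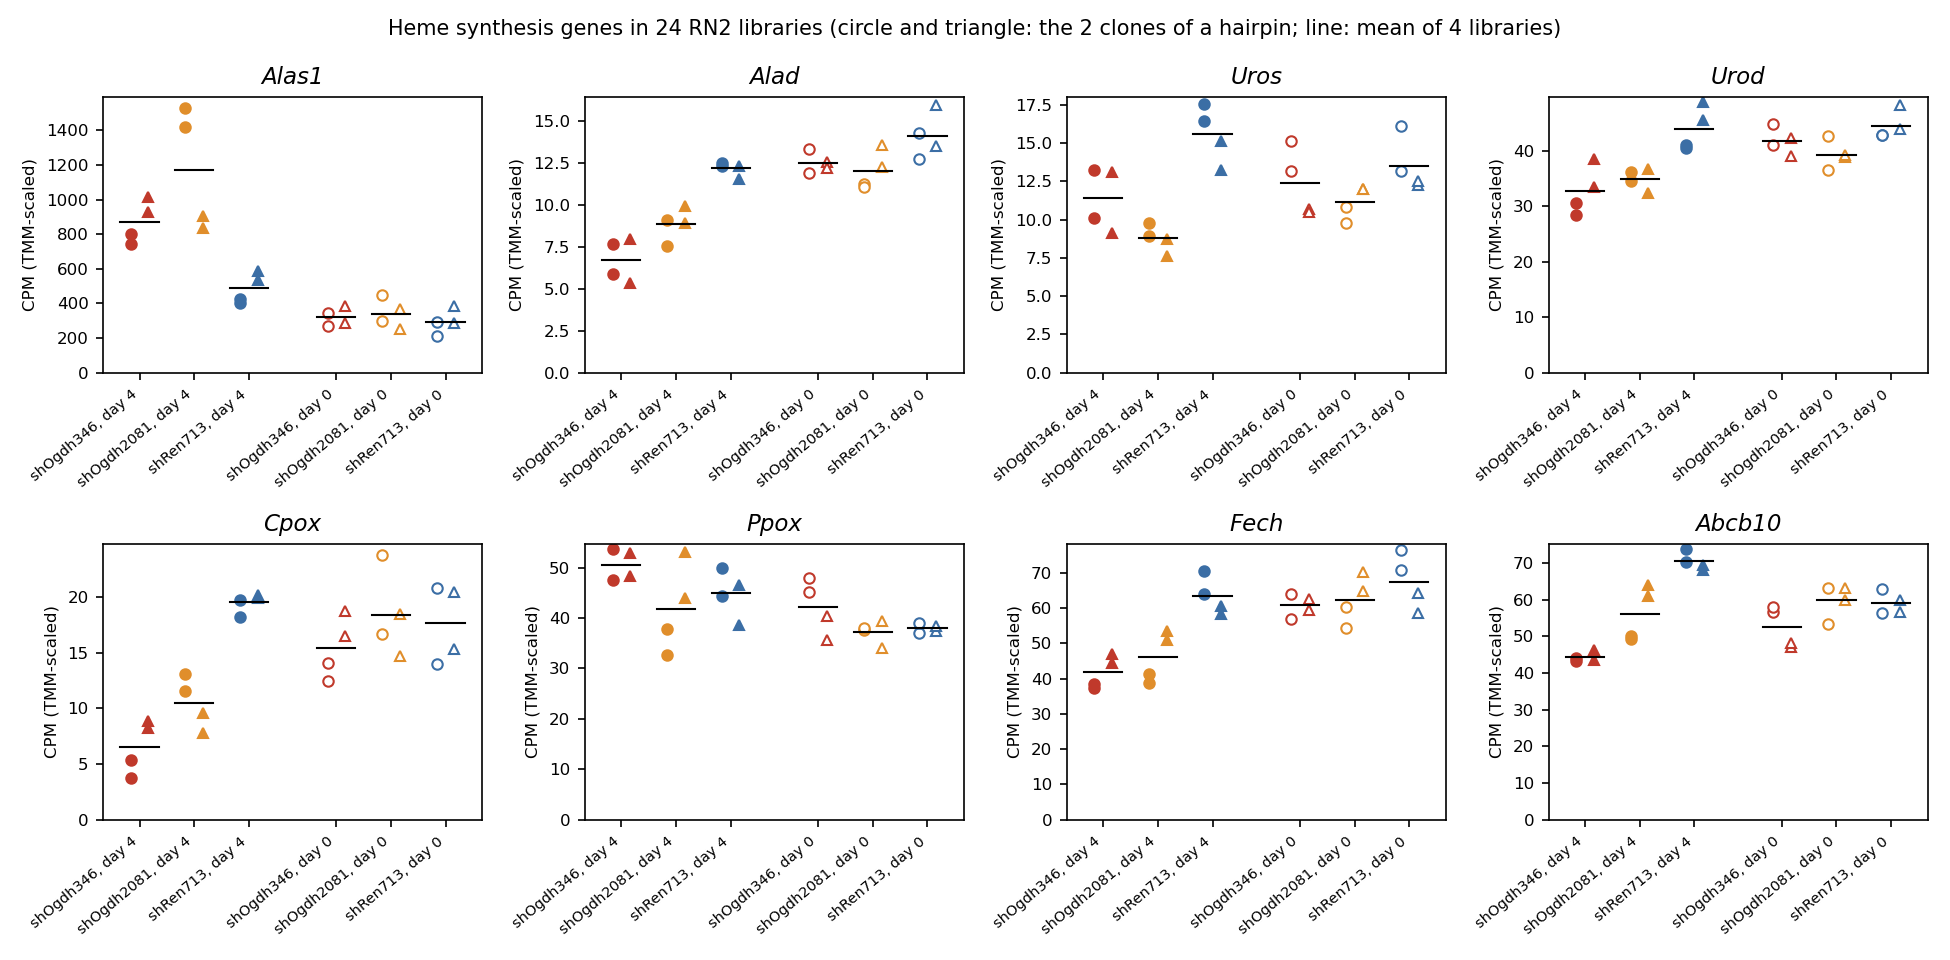
CPM of each gene in the 24 libraries, with day 4 left of day 0 and shOgdh346 (red) and shOgdh2081 (orange) left of shRen713 (blue); filled points are day 4, open points day 0, circles and triangles are the 2 clones of a hairpin, and lines are means of 4 libraries. At day 4 Alas1 lies at 742 to 1529 CPM in the 8 libraries of the Ogdh hairpins and at 400 to 585 CPM in the 4 control libraries, while Cpox lies at 3.72 to 13.04 CPM with the Ogdh hairpins and at 18.2 to 20.1 CPM in the control.

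Alas1 (ENSMUSG00000032786) lies on chromosome 9 of GRCm38, from 106233455 to 106248654 on the minus strand. At day 4 its level in shOgdh346 was 742 and 800 CPM in clone 1 and 929 and 1015 CPM in clone 5. In shOgdh2081 it was 1416 and 1529 CPM in clone 3 and 833 and 904 CPM in clone 5. In shRen713 it was 400 and 423 CPM in clone 2 and 538 and 585 CPM in clone 7. All 8 libraries of the Ogdh hairpins were thus above the 4 control libraries, and clone 3 of shOgdh2081 was the highest. At day 0 the libraries overlapped, at 254 to 448 CPM with the Ogdh hairpins and 212 to 383 CPM with shRen713. Per length, the mean over clones at day 4 was 165 ± 48.6 RPKM for the Ogdh hairpins (SD, n = 4) and 78.7 ± 17.3 RPKM for shRen713 (SD, n = 2).

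The rise of Alas1 was not limited to the Ogdh hairpins. In the control clones alone, Alas1 rose between day 0 and day 4 by 0.74 ± 0.106 on the log2 scale (SE, adjusted p = 0.00709), the one member of 8 to pass the test there, where 4.44% of all genes rose and 2.44% fell. These shares stand for 980 genes, a number that was 239 without the rep 1 library of control clone 2 at day 0, 189 without that of clone 7, and 17 or 8 without clone 2 or clone 7 as a whole. The corresponding change was 1.45 ± 0.107 in shOgdh346 (adjusted p = 9.62e-06) and 1.74 ± 0.108 in shOgdh2081 (adjusted p = 7.83e-06). Net of the control the change was 0.86 ± 0.129 (SE, adjusted p = 0.00116), higher in each of the 8 possible pairs of a knockdown clone and a control clone. Alad, Uros and Urod were lower in all 8 pairs too, though their mean net changes did not pass the test. Such a count is also given below for Cpox, Fech and Abcb10. The share of all tested genes that reach it was not computed. Separately, shOgdh346 gave 0.72 ± 0.149 (adjusted p = 0.00603), and 1.00 ± 0.149 was the value of shOgdh2081 (adjusted p = 0.00206). The call for shOgdh346 was lost without control clone 2, at 0.65 (adjusted p = 0.0749), and the control's own rise was lost without control clone 2 (adjusted p = 0.157) or clone 7 (adjusted p = 0.256). At day 0 the library labelled rep 2 exceeded rep 1 for Alas1 by 0.363 to 0.587 on the log2 scale in all 6 clones, and at day 4 by 0.0808 to 0.128. From the rep 1 libraries alone the net change was 0.90 (adjusted p = 0.00114), and from the rep 2 libraries alone 0.90 (adjusted p = 0.000336), while the control's own rise was 0.91 and 0.55.

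The second enzyme is ALAD, which joins aminolevulinate molecules into porphobilinogen, and the later cytosolic steps include UROS, which closes the ring, and UROD, which trims its side chains. At day 4 the libraries of both Ogdh hairpins lay below the control libraries for all of these genes, as for 20.1% of all tested genes. The net changes of Alad, Uros and Urod did not pass the test over both hairpins. Alad (ENSMUSG00000028393; chromosome 4, 62509169 to 62519918, minus strand) had 5.90 and 7.70 CPM in clone 1 and 7.99 and 5.37 CPM in clone 5 of shOgdh346 at day 4. It had 7.57 and 9.10 CPM in clone 3 and 9.96 and 8.93 CPM in clone 5 of shOgdh2081, and 11.6 to 12.5 CPM in the 4 libraries of shRen713. At day 0, 6 of the 8 libraries of the Ogdh hairpins were already below all 4 control libraries, and the ranges were 11.1 to 13.5 CPM with the Ogdh hairpins and 12.7 to 15.9 CPM with shRen713. Its mean net change was -0.45 ± 0.165 (SE, adjusted p = 0.0589). For shOgdh346 alone Alad fell by 0.65 net of the control (adjusted p = 0.0274), and for shOgdh2081 the value was -0.24 ± 0.191 (adjusted p = 0.371). The call for shOgdh346 was lost without either control clone, without either shOgdh346 clone, and from the rep 1 or the rep 2 libraries alone (adjusted p = 0.0849 and 0.0924).

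Uros (ENSMUSG00000030979; chromosome 7, 133686243 to 133710072, minus strand) ran at day 4 from 7.64 to 13.2 CPM in libraries of the Ogdh hairpins, median 9.45 CPM, and from 13.3 to 17.6 CPM in those of shRen713, median 15.8 CPM. The groups did not overlap, but the highest Ogdh-hairpin library and the lowest control library lay close together, and at day 0, 6 of the 8 Ogdh-hairpin libraries were already below all control libraries. The mean net change of Uros was -0.41 ± 0.193 (SE, adjusted p = 0.129). Urod (ENSMUSG00000028684; chromosome 4, 116989965 to 116994413, minus strand) had 28.5 to 38.5 CPM at day 4 with the Ogdh hairpins, median 34.02 CPM, and 40.6 to 48.8 CPM with shRen713, median 43.4 CPM. At day 0, 7 of the 8 Ogdh-hairpin libraries were also below all control libraries for Urod, and the level difference was -0.15 ± 0.0729 there (SE, adjusted p = 1) and -0.36 ± 0.129 at day 4 (adjusted p = 0.0903). Its mean net change was -0.21 ± 0.126 (SE, adjusted p = 0.217).

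Cpox (ENSMUSG00000022742; chromosome 16, 58670208 to 58680391, plus strand) encodes the enzyme of the mitochondrial intermembrane space that turns coproporphyrinogen into protoporphyrinogen, and it changed most among the 8. At day 4 it had 3.72 and 5.36 CPM in clone 1 and 8.25 and 8.87 CPM in clone 5 of shOgdh346. It had 11.6 and 13.04 CPM in clone 3 and 9.56 and 7.76 CPM in clone 5 of shOgdh2081. In shRen713 it had 18.2 and 19.8 CPM in clone 2 and 20.1 and 19.9 CPM in clone 7. The Ogdh-hairpin libraries all lay below the control libraries, lowest in clone 1 of shOgdh346, where the lowest library held 29 counts of the gene. At day 0 the groups overlapped, at 12.5 to 23.8 CPM with the Ogdh hairpins and 13.99 to 20.8 CPM with shRen713.

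The mean net change of Cpox was -1.17 ± 0.177 (SE, adjusted p = 0.00117), lower in all 8 pairs of clones. The value of shOgdh346 was -1.40 ± 0.208 (adjusted p = 0.00124) and that of shOgdh2081 was -0.95 ± 0.204 (adjusted p = 0.00972). The mean passed the test in each of the 40 alternative settings, between -1.31 and -1.05. The call for shOgdh2081 was lost without control clone 2 (adjusted p = 0.0751) or clone 7 (adjusted p = 0.0801). In the control Cpox had a value of 0.13 ± 0.142 between day 0 and day 4 (adjusted p = 0.634). At day 0 its rep 2 library was below rep 1 in all 6 clones, by 0.17 to 0.568 on the log2 scale, and the net change was -1.12 from rep 1 alone (adjusted p = 0.00263) and -1.23 from rep 2 alone (adjusted p = 0.00119).

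Ppox (ENSMUSG00000062729; chromosome 1, 171275990 to 171281186, minus strand) encodes the next oxidase, on the inner mitochondrial membrane, and was the one member whose groups overlapped at day 4. It had 32.7 to 53.7 CPM with the Ogdh hairpins, median 47.9 CPM, and 38.6 to 49.9 CPM with shRen713, median 45.5 CPM. The lowest values, 32.7 and 37.8 CPM, were those of clone 3 of shOgdh2081, whereas the 4 libraries of shOgdh346 had 47.4 to 53.7 CPM. Its mean net change was -0.02 ± 0.164 (SE, adjusted p = 0.931). Ppox shares 791 exon bases with B4galt3 on the opposite strand, which had 13.9 to 42.5 CPM. At day 4 B4galt3 averaged 31.4 CPM with the Ogdh hairpins and 23.6 CPM with shRen713. The strand setting of the counting is not given in the sources used here, and the part of B4galt3 in the Ppox values was not tested.

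Fech (ENSMUSG00000024588; chromosome 18, 64456550 to 64489066, minus strand) encodes ferrochelatase, the last step. At day 4 it had 38.3 and 37.4 CPM in clone 1 and 44.5 and 47.1 CPM in clone 5 of shOgdh346. It had 41.4 and 38.7 CPM in clone 3 and 53.6 and 50.9 CPM in clone 5 of shOgdh2081, and 58.3 to 70.6 CPM in the 4 libraries of shRen713. The groups did not overlap at day 4 and did at day 0, where the Ogdh hairpins had 54.4 to 70.1 CPM and shRen713 58.7 to 76.4 CPM. The mean net change of Fech was -0.38 ± 0.109 (SE, adjusted p = 0.0219), lower in all 8 pairs of clones, and shOgdh346 had -0.44 ± 0.126 (adjusted p = 0.0247) where shOgdh2081 had -0.33 ± 0.125 (adjusted p = 0.0825). The call on the mean was lost without control clone 2 (adjusted p = 0.123) or clone 7 (adjusted p = 0.191), from the rep 1 libraries alone (adjusted p = 0.112) and with DESeq2 (adjusted p = 0.0644). From the rep 1 libraries alone the call for shOgdh346 was also lost (adjusted p = 0.0703).

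Abcb10 (ENSMUSG00000031974; chromosome 8, 123952459 to 123983122, minus strand) encodes a transporter that heme synthesis needs in maturing red cells of the mouse. At day 4 it had 43.3 to 46.3 CPM in the 4 libraries of shOgdh346. In shOgdh2081 it had 50.04 and 49.4 CPM in clone 3 and 64.1 and 61.1 CPM in clone 5, and in shRen713 it had 68.3 to 73.9 CPM. All Ogdh-hairpin libraries were below the control libraries at day 4, whereas at day 0 the ranges overlapped, at 47.1 to 63.3 CPM with the Ogdh hairpins and 56.4 to 63.0 CPM with shRen713. Its mean net change was -0.43 ± 0.123 (SE, adjusted p = 0.0233), lower in all 8 pairs, and shOgdh346 had -0.50 ± 0.142 (adjusted p = 0.0241) where shOgdh2081 had -0.35 ± 0.142 (adjusted p = 0.0948). The day 4 minus day 0 value was -0.24 ± 0.101 in shOgdh346, -0.09 ± 0.100 in shOgdh2081 and 0.26 ± 0.100 in shRen713, and none of these passed the test on its own (adjusted p = 0.0645, 0.448 and 0.158). The call on the mean was lost without control clone 2 (adjusted p = 0.147) or clone 7 (adjusted p = 0.142), from the rep 2 libraries alone (adjusted p = 0.0675), under a filter of 10 CPM (adjusted p = 0.0517) and with DESeq2 (adjusted p = 0.0549). From the rep 2 libraries alone the call for shOgdh346 was also lost (adjusted p = 0.0961).

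**Figure D2:**
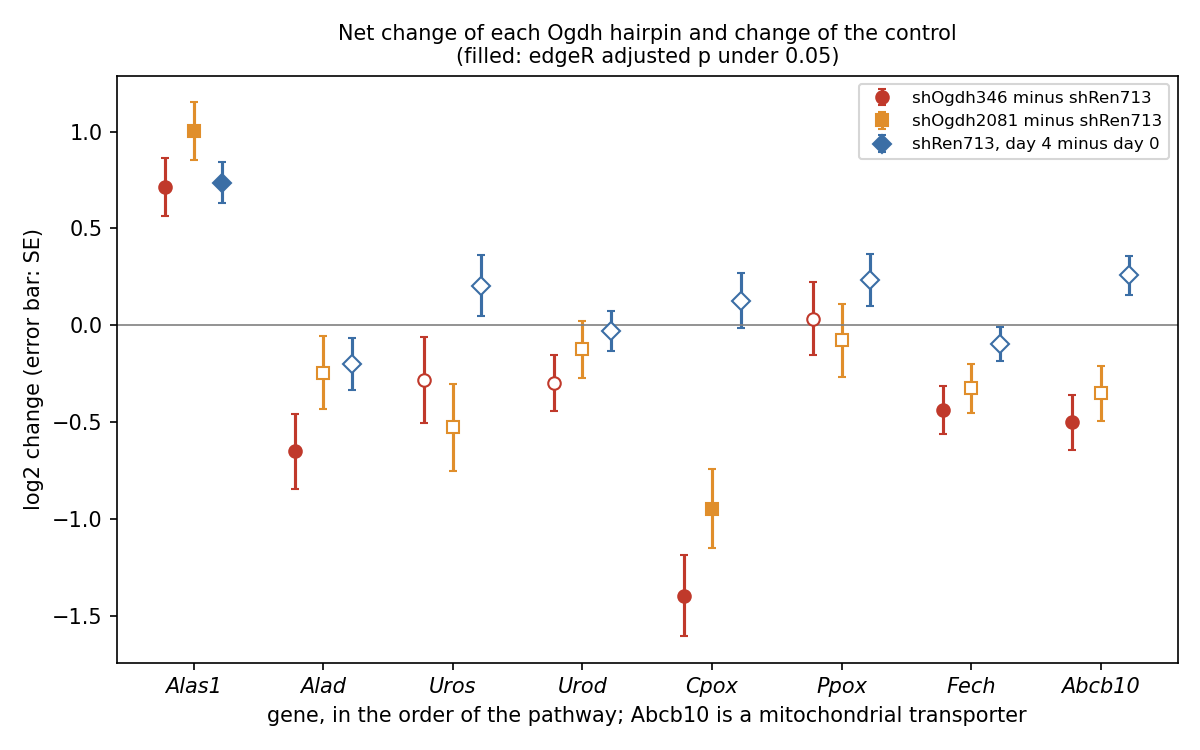
Net log2 change with its SE for each gene under shOgdh346 (red circles) and shOgdh2081 (orange squares), and the day 4 minus day 0 change of shRen713 (blue diamonds); filled symbols passed edgeR's test at an adjusted p of 0.05. Alas1 lies above 0 and Cpox below 0 for both Ogdh hairpins, at 0.72 and 1.00 and at -1.40 and -0.95, and the control is filled for Alas1 alone.

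The 2 Ogdh hairpins were then compared with each other. With shOgdh346, 1 member rose and 4 fell net of the control, where 16.4% and 18.4% of all genes did. With shOgdh2081, 1 rose and 1 fell, where 13.6% and 14.2% of all genes did. Without the control taken off, 1 member was higher and 4 lower at day 4 than at day 0 in shOgdh346, where 30.2% and 29.3% of all genes were, and 1 was higher and 3 lower in shOgdh2081, where 27.5% and 25.9% were. None of the 8 members passed the test of the difference between the hairpins, with edgeR adjusted p between 0.515 and 0.872, and 0 had an unadjusted p under 0.05; DESeq2 also called 0. Of all genes, 0.105% passed that test, which is 15 genes; without single clones or libraries the number was 2 to 59. The largest difference, for Cpox, was -0.45 ± 0.211 (shOgdh346 minus shOgdh2081, SE), and for Alad it was -0.41 ± 0.193. Both hairpins are compared with the same control clones, so their net changes are not independent of each other.

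**Figure D3:**
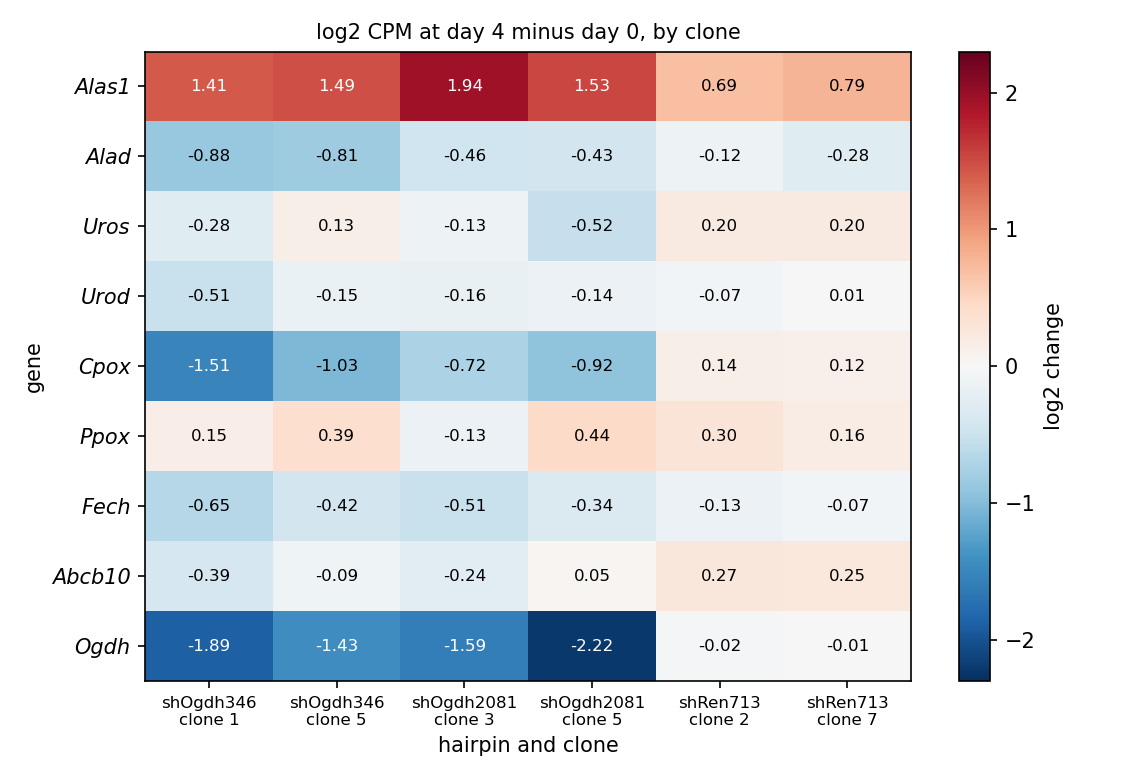
Change in log2 CPM between day 4 and day 0 for the 8 genes and Ogdh in each clone, with the 4 clones of the Ogdh hairpins left of the 2 control clones; red is higher and blue lower at day 4. Alas1 is red in all 6 clones, at 1.41 to 1.94 with the Ogdh hairpins and 0.69 and 0.79 with shRen713, and Cpox is blue in the 4 Ogdh-hairpin clones alone, at -1.51 to -0.72.

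Levels were also compared within a day. At day 4, 7 of the 8 members did not overlap between the 8 libraries of the Ogdh hairpins and the 4 of shRen713, with 1 higher and 6 lower, where 16.8% of all genes were higher and 20.1% lower in this sense. In the test over the sums of clones at day 4, 1 member was higher and 4 were lower, where 12.7% of all genes were higher and 14.2% lower. Alas1 was higher by 1.05 ± 0.257 (SE, adjusted p = 0.037). Cpox was lower, at -1.23 ± 0.272 (adjusted p = 0.0282), as were Alad at -0.63 ± 0.168 (adjusted p = 0.0443), Uros at -0.61 ± 0.153 (adjusted p = 0.0387) and Abcb10 at -0.49 ± 0.124 (adjusted p = 0.0386). Fech had a value of -0.52 ± 0.156 (adjusted p = 0.059) and Urod one of -0.36 ± 0.129 (adjusted p = 0.0903). None of these calls was kept without control clone 2 or without control clone 7, which leave a single control sum. Leaving out single clones of the Ogdh hairpins, which leaves a single sum of that hairpin, also ended calls. It did so for Alad and Uros with each of these clones, and for Abcb10 with either clone of shOgdh346. The call of Alas1 was lost without either clone of shOgdh346 or without clone 3 of shOgdh2081, and that of Cpox without clone 5 of shOgdh2081. Over left-out clones and libraries Alas1 ran from 0.853 to 1.31 and Cpox from -1.49 to -1.06. Some of the lower calls were also lost within 1 label, for Alad with rep 1 or rep 2 alone (adjusted p = 0.121 and 0.0654), for Uros likewise (adjusted p = 0.0566 and 0.0921) and for Abcb10 with rep 1 alone (adjusted p = 0.0546). At day 0 none of the 8 members passed the test, none had an unadjusted p under 0.05, and 0% of all genes passed, while DESeq2 called 0 members and 1 gene in all. With no filter on low counts edgeR called 417 genes at day 0, and 0 members. All 8 members overlapped between the day 0 libraries, and 0.239% of all genes were higher and 0.323% lower without overlap there.

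Across the 12 sums, the members fell into patterns that differed in sign. Pearson's r was 0.922 between Alad and Fech, 0.874 between Urod and Cpox and 0.843 between Alad and Cpox. It was -0.865 between Alas1 and Alad and -0.851 between Alas1 and Fech, and over the 28 pairs 17 were above 0, with a median of 0.381. Ppox had an r of -0.635 with Cpox and 0.293 with Alas1. The sums share clones, hairpins and scaling, so these values are a description. Among 9283 genes with at least 5 CPM on average, the patterns most like that of Alas1 were those of Olr1 (r = 0.979), Trip11 (r = 0.978) and Zfp281 (r = 0.977). For Fech they were those of Trerf1 (r = 0.986), Prmt3 (r = 0.976) and Eid2b (r = 0.973).

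Short stretches of promoter are shown for 4 members because they hold letters of factors named in the control of mitochondrial or heme genes. RefSeq promoter windows (GRCm38.p6) were searched on both strands over the 250 bases before each start site for 4 motifs. These were the NRF1 core CGCATGCG, the E-box CACGTG, the antioxidant response element TGACNNNGC and the cAMP response element TGACGTCA, none of which overlapped another in the members' windows. In the stretches below, read 5′ to 3′ on the minus strand, the match is in capitals.
Alas1: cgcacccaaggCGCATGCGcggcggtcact
Abcb10: cctgagtgccgCGCATGCGcactccgccag
Alad: ccgccccgccccCACGTGggcttgcgcttt
Urod: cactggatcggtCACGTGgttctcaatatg
The Alas1 stretch is at chr9:106247906-106247935, with the match 194 bases before the second of its RefSeq starts and beyond the first, so that it may lie in a transcribed leader. The Abcb10 stretch is at chr8:123983135-123983164, with the match 31 bases before the start. The Alad stretch is at chr4:62519920-62519949, with the match 28 bases before its second start and beyond the first. It may therefore also lie in a transcribed leader. The Urod stretch is at chr4:116994445-116994474, 49 bases before its start. Alad has a further E-box 105 bases before its first start, and Uros one 250 bases before its first. The NRF1 motif is in 1.55% and the E-box in 6.02% of all 32851 windows. The antioxidant response element (10.2% of windows) and the cAMP response element (1.55%) had no match in the 7 members searched, all but Fech, and Cpox and Ppox had none of the 4. Of the members with the NRF1 core, Alas1 rose and Abcb10 fell, while those with the E-box, Alad, Uros and Urod, had mean net changes of -0.45, -0.41 and -0.21 that did not pass the test. A match of letters shows neither binding nor use.

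Genes around the pathway were read from lists chosen with earlier results of these data known. Of the other steps, carriers and partners of heme synthesis, 2 of 16 tested genes rose net of the control and 8 fell, with a median net change of -0.33; over all tested genes 17.9% rose and 19.8% fell, with a median of -0.00201. Abcb8, a mitochondrial transporter, fell by 0.69 on the log2 scale (adjusted p = 0.00077). Fam210b, which encodes a mitochondrial membrane protein, rose by 1.05 (adjusted p = 0.000946). Clpx, which encodes a mitochondrial chaperone that acts on ALAS, had a value of -0.08 ± 0.108 (SE, adjusted p = 0.59). Slc25a38, the glycine carrier, had one of 0.00 ± 0.149 (adjusted p = 0.993). Both Clpx and Slc25a38 lie outside the rule for named genes and were picked with their values seen.

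**Figure D4:**
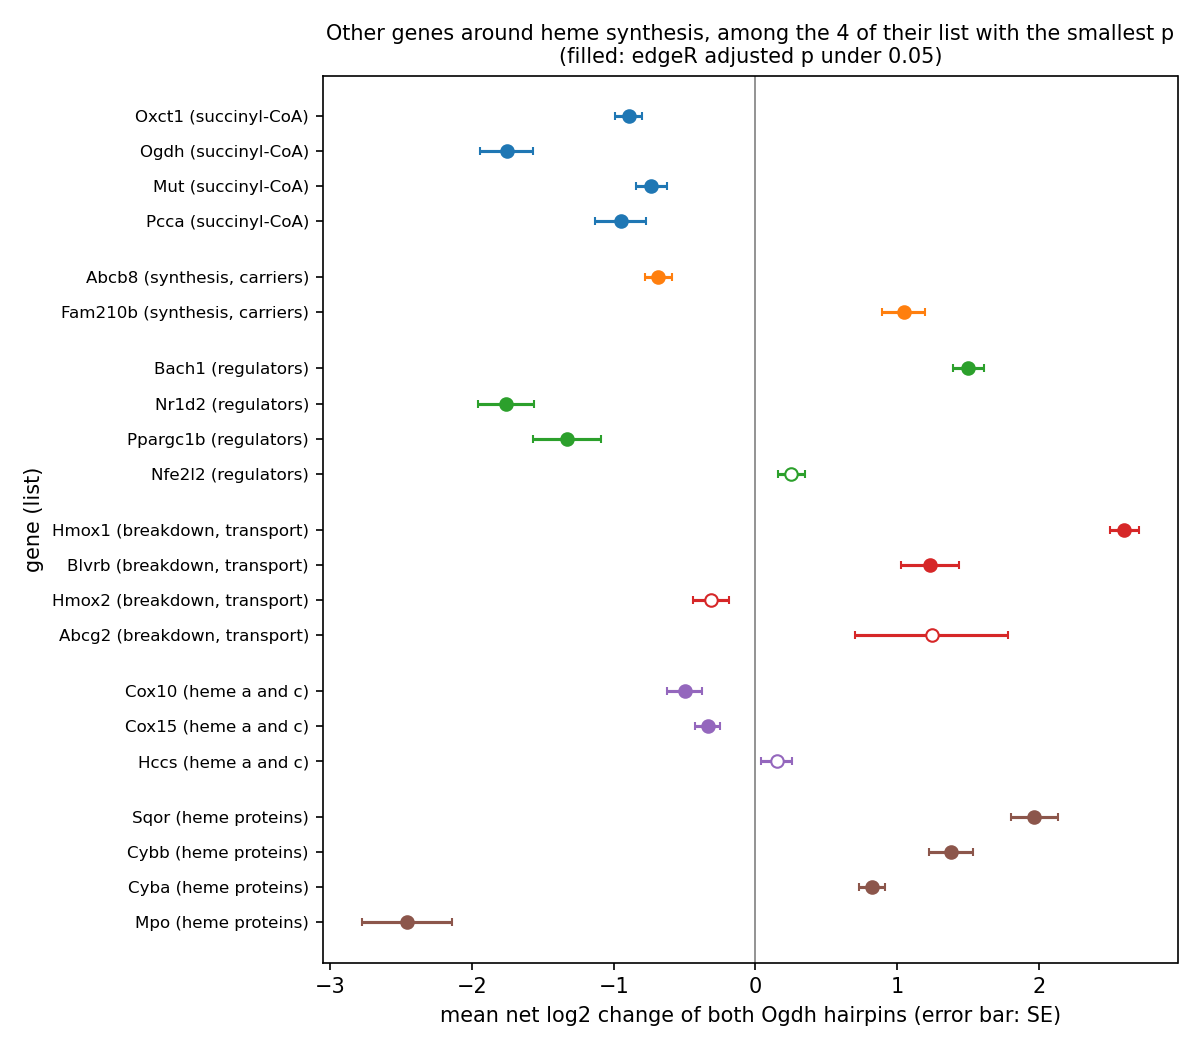
Mean net log2 change of both Ogdh hairpins with its SE, for genes among the 4 of their list with the smallest p; filled points passed edgeR's test at an adjusted p of 0.05. Hmox1 lies farthest to the right at 2.604 and Mpo farthest to the left at -2.46. The 4 genes of succinyl-CoA, which include the target Ogdh, all lie below 0.

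On the supply side, 7 of 12 tested genes that make or use succinyl-CoA fell, where 19.8% of all genes fell, and the others did not pass the test. Ogdh, the target of both hairpins, is among the 7. The median was -0.616, beside -0.00201 over all tested genes. Oxct1, which encodes the enzyme that moves coenzyme A between succinyl-CoA and ketone bodies, fell by 0.89 (adjusted p = 0.00024). Pcca, a subunit of propionyl-CoA carboxylase, fell by 0.95 (adjusted p = 0.00356), and Mut, which encodes methylmalonyl-CoA mutase, fell by 0.73 (adjusted p = 0.00102).

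On the breakdown side, 2 of 11 tested genes rose and the others did not pass the test, with a median of 0.23, so the share that rose was near the 17.9% of all genes. Hmox1, which encodes the inducible heme oxygenase that opens the heme ring, had 106 to 190 CPM at day 4 with the Ogdh hairpins, against 18.3 to 19.1 CPM with shRen713, while the groups overlapped at day 0, at 22.1 to 48.4 CPM with the Ogdh hairpins and 23.5 to 33.2 CPM with shRen713. Its net change was 2.604 ± 0.101 (SE, adjusted p = 3.59e-06), and in the control alone Hmox1 fell by 0.63 between day 0 and day 4 (adjusted p = 0.00563). Blvrb, which encodes biliverdin reductase B, rose by 1.23 (adjusted p = 0.00194). Blvra, which encodes the reductase of the biliverdin that heme oxygenase makes, had a value of -0.10 ± 0.185 (SE, adjusted p = 0.69) and was named after its value was seen. Hmox2, the constitutive heme oxygenase, had a value of -0.31 ± 0.126 (adjusted p = 0.0814), and Abcg2, a porphyrin and heme exporter, one of 1.25 ± 0.540 (adjusted p = 0.1). Over left-out clones and libraries the value of Abcg2 ran from 0.703 to 2.08. Abcg2 passed the test with no filter on low counts (adjusted p = 0.012). It also did with the replicate block over 24 libraries (adjusted p = 0.00744), which enters both libraries of a clone and day separately. Its levels were low. Clones of the Ogdh hairpins averaged 0.807 CPM at day 0 and 2.31 ± 1.76 CPM at day 4 (SD, n = 4). Those of shRen713 averaged 2.96 CPM at day 0 and 3.05 ± 3.46 CPM at day 4 (SD, n = 2).

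Of the regulators, 1 of 11 tested genes rose and 2 fell, with a median of 0.0655, where 17.9% of all genes rose and 19.8% fell. Bach1, which encodes the heme-binding repressor of Hmox1, rose by 1.503 ± 0.109 net of the control (SE, adjusted p = 5.38e-05), with 223 to 352 CPM at day 4 with the Ogdh hairpins and 91.2 to 97.8 CPM with shRen713. In the control it fell by 0.52 (adjusted p = 0.0134). Nr1d2, which encodes the heme-binding nuclear receptor REV-ERB beta, fell by 1.76 (adjusted p = 0.000299). Ppargc1b, a coactivator of mitochondrial genes, fell by 1.33 (adjusted p = 0.00281). Nfe2l2, which encodes NRF2, had a value of 0.25 ± 0.0968 (adjusted p = 0.0676).

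Of the 3 genes for heme a and heme c, Cox10 fell by 0.50 (adjusted p = 0.0112) and Cox15 by 0.34 (adjusted p = 0.0165), both on the way to the heme a of cytochrome c oxidase, and Hccs had a value of 0.15 ± 0.112 (adjusted p = 0.321). Of 14 tested genes on a list of heme proteins, 3 rose and 6 fell, with a median of -0.21, where 17.9% of all genes rose and 19.8% fell. The ones that rose were Sqor, a mitochondrial flavoenzyme that oxidises sulphide and is no heme protein in the strict sense, by 1.97 (adjusted p = 9.55e-05), and Cybb and Cyba, which encode the cytochrome of the phagocyte oxidase, by 1.38 (adjusted p = 0.000312) and 0.82 (adjusted p = 0.000321). Mpo, the myeloperoxidase of primary granules, fell by 2.46 net of the control (adjusted p = 0.00142). Part of this value is a rise in the control, whose clones averaged 1456.5 CPM at day 0 and 3792.5 CPM at day 4. Between these days Mpo went from 3599 to 571 CPM in clone 1 and from 949 to 350 CPM in clone 5 of shOgdh346. In shOgdh2081 it went from 502 to 432 CPM in clone 3 and from 2976 to 3039 CPM in clone 5.

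Markers of other stages moved with the Ogdh hairpins beside all of these results. The 13 table entries for neutrophil maturation genes, all of which were tested, summed to 19410 to 44050 CPM in shOgdh346 and 7084 to 12690 CPM in shOgdh2081 at day 4, against 457 to 1542 CPM in shRen713 at day 4. At day 0 they summed to 363 to 3242 CPM over all hairpins. S100a8, at 5576 to 12930 CPM, and S100a9, at 8941 to 23780 CPM, were the largest entries in shOgdh346 at day 4. Csf3r did not rise with them. At day 4 it had 40.9 to 96.1 CPM in shOgdh346, 31.8 to 63.7 CPM in shOgdh2081 and 58.55 to 82.3 CPM in shRen713. In shOgdh2081, Cxcr2 and Fpr1 also overlapped with shRen713. The other entries were higher in both Ogdh hairpins without overlap. The 7 megakaryocyte genes summed to 22.7 to 28.9 CPM in shOgdh346 and 46.7 to 77.6 CPM in shOgdh2081 at day 4, against 2.55 to 8.57 CPM in shRen713. The myeloid genes of the line itself summed to 3849 to 4582 CPM in shOgdh346 and 4158 to 7512 CPM in shOgdh2081 at day 4. In shRen713 they summed to 7509 to 8599 CPM at day 4 and to 5087 to 6274 CPM at day 0. Over all hairpins the day 0 sums were 4208 to 8501 CPM. The genes of this list did not move as one. At day 4 Itgam, Ptprc and Spi1 were higher in both Ogdh hairpins than in shRen713 without overlap, and Elane was lower. Mpo, Kit and Cebpa were lower without overlap in shOgdh346 alone and Csf1r in shOgdh2081 alone, while Ly6c2 overlapped. The part of this shift in the changes of the heme genes was not tested, and in bulk RNA fewer cells of a type and less RNA per cell cannot be told apart.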

How the data were processed

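Per the labels' protocols, polyadenylated RNA was read as single ends. The deposited table holds whole-number counts per Ensembl gene and a transcript length. The submitters' processing notes name STAR 2.6.1a, featureCounts 1.6.3, FastQC 0.11.5 and Trimmomatic 0.36, and the build mm10 (GRCm38); the labels' protocols also name a human build and RPKM, which the deposited counts under mouse identifiers contradict. The strand setting is not given in the sources used here.

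Counts were summed per clone and day (2 libraries each), filtered with filterByExpr, TMM-scaled and tested with edgeR 4.0.16 in R 4.3.3 (robust quasi-likelihood test, Benjamini-Hochberg adjusted p under 0.05 over all genes). The model for changes held clone blocks and day 4 effects by hairpin, with 3 residual and a median of 6.11 prior degrees of freedom. The labels pair the days by clone, and clone deviations correlated between days at r of 0.603 to 0.838. Levels were tested on the 6 sums of a day, over 13747 genes at day 4 and 13125 at day 0. The p-values measure the spread between these clones. CPM and RPKM were computed from the counts, and log2 changes by clone with a prior count of 2.

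Members and lists were chosen with earlier results of these data known. Named genes were the members, Ogdh, up to 4 genes per list with the smallest p, and the 3 genes most like Alas1 and Fech; some genes that this rule names are not reported here. Scripts were tested on simulated data. Alternatives were DESeq2 1.42.0, other scalings, filters and blocks, and left-out clones or libraries.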

Additional observations from a re-analysis of the deposited data

How the results depend on the processing

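The counts of members called were recomputed under each alternative, against 4 for the mean net change, 5 for shOgdh346, 2 for shOgdh2081, 0 for the difference of the hairpins, 1 for the control's own change, and 5 and 0 for levels at day 4 and day 0. With no replicate block the counts were 1, 1 and 0 for the mean and the 2 hairpins and 0 for the control, and the adjusted p of Alas1 was 0.0943. With 24 libraries and clone and replicate number as a replicate block, they were 5 for shOgdh2081 and 2 for the control. The 2 libraries of a clone and day enter that setting as separate observations, although they share a clone. DESeq2 gave 2 for the mean and 2 for shOgdh346. A filter of 10 CPM gave 3 for shOgdh346 and 3 for day 4. The rep 1 libraries alone gave 3 and 2 for these, and the rep 2 libraries alone 3 and 3. With day 0 rep 1 alone the control had 2, and with day 0 rep 2 alone shOgdh346 had 3. Leaving out a clone or library gave 2 to 6 for the mean, 1 to 6 for shOgdh346, 1 to 3 for shOgdh2081, 0 to 1 for the control and 0 to 5 for day 4. The cause was not tested.

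Values that changed sign were all uncalled. The mean net change of Ppox became 0.00652 with RLE scaling, 0.0587 with the stricter filter, 0.00641 with DESeq2, 0.00286 with the replicate block over 24 libraries and 0.0522 from rep 2 alone, and ran from -0.173 to 0.112 over left-out clones and libraries. For Ppox under shOgdh346 that range was -0.0945 to 0.139, and under shOgdh2081 it was -0.372 to 0.198, with 0.0137 from rep 2 alone. Its day 4 level was -0.0166 from rep 1 alone and ran from -0.115 to 0.164. In the control, Cpox became -0.101 from rep 1 alone and -0.0625 with day 0 rep 1 alone. Urod became 0.0349 from rep 2 alone and 0.0144 with day 0 rep 2 alone, and ran from -0.0697 to 0.0143. The number of all genes with a net change ran from 2084 to 7177, against 5367. For the difference of the hairpins it ran from 0 to 940, against 15, for the control's own change from 8 to 3439, against 980, for day 4 levels from 12 to 7366, against 3705, and for day 0 levels from 0 to 417, against 0. Hmox1, Bach1, Blvrb, Fam210b and Abcb8 kept their net changes past the test in all 40 alternatives. Cox15 lost its call in 7, Cox10 in 2 and Ppargc1b, Cybb and Mpo in 1 each.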
